A study of Rattus norvegicus with 14 samples.

Results

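TSH receptor and cAMP signaling was followed here through 10 genes chosen by name: the receptor Tshr, the G protein subunit Gnas, the adenylyl cyclases Adcy3, Adcy6 and Adcy9, the phosphodiesterases Pde4b and Pde4d, the anchoring protein Akap12 and the transcription factors Creb1 and Crem. Of these 10 genes, 9 had a row among the 16816 rows of the count table, and Adcy9 is not analysed here. PCCL3 is a differentiated rat thyroid follicular cell line that grows in response to TSH. PPFP cells are a PCCL3 line that stably expresses a myc-tagged fusion of human PAX8 and PPARG (PPFP), and EV cells carry the empty vector, so each construct is represented by a single stable line. Both received pioglitazone at 1 μM, an agonist of PPARG, or DMSO vehicle for 16 h, giving 4 groups of 3 RNA libraries. All 4 groups were kept in the same medium with 1 mU/ml TSH, 10 ug/ml insulin, 10 nM hydrocortisone, 5 ug/ml transferrin and 5% serum, so that the receptor was stimulated in every library and no group without TSH was measured.

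TSH binds the TSH receptor on the thyroid follicular cell, the receptor activates the stimulatory G protein whose alpha subunit is encoded by Gnas, and this subunit turns on adenylyl cyclases that make cAMP. cAMP activates protein kinase A and the RAP1 exchange factors of the EPAC family, phosphodiesterases break it down, and A kinase anchoring proteins hold the kinase near its substrates. Protein kinase A phosphorylates CREB, which binds the cAMP response element in promoters. In the thyroid this cascade drives iodide uptake, hormone synthesis and growth.

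The libraries held 23724703 to 35240176 counts each. Thyroid follicular marker genes summed to between 10207 and 14681 CPM (normalized counts per 1000000 counts, with TMM factors) in every library, while the C cell markers Calca and Chga, the endothelial markers Pecam1 and Cdh5, the leukocyte marker Ptprc and the fibroblast markers Col1a2, Col3a1, Pdgfrb and Dcn had at most 3 counts in any library. Other markers of the same lists had counts: Ret averaged 6.92 CPM in EV libraries and 0.640 in PPFP libraries without pioglitazone, Cd14 5.70 and 4.28, Cd68 0.525 and 0.953, Pdgfra 21.1 and 25.2, and Col1a1 1.92 and 2.53. Their part in the results was not tested. Without pioglitazone, reads assigned to Pparg averaged 1.60 CPM in EV libraries, against 54.1 CPM in PPFP libraries (log2 fold change 5.08, SE 0.19, edgeR adjusted p = 3.6e-06); the counts do not separate the rat gene from the human fusion. The 3 replicates of a group came from 3 experiments, but replicates 2 and 3 of PPFP cells lay much closer to each other than to replicate 1. With pioglitazone, 10.5% of genes differed between these 2 libraries beyond the point that counting error alone passes for 5% of genes, and without pioglitazone 24.3% did, against 53.6% to 69.0% for every other pair of replicates. They were kept as separate samples, since the paper states 3 independent experiments. A difference beyond counting error cannot settle this, because it does not tell separate cultures from libraries of a shared culture. Values with the pair counted as 1 sample are given beside the results that changed.

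Promoter sequences are shown for Crem and Creb1, the transcription factors of the pathway, and for Akap12, an anchoring protein with few counts in EV cells. The windows run from 250 bases before to 50 bases after a start site and come from RefSeq on the GRCr8 build, which is not the build of the counts. The 10 genes have 17 such windows, which belong to 7 of them, and none was at hand for Tshr, Adcy3 or Adcy6. Crem gives rise to several transcripts, including the short repressor ICER, which is made from an internal promoter and is induced by cAMP; gene counts do not separate these transcripts. The cAMP response element TGACGTCA was found in 1.83% of all 33469 rat windows and in 2 of the 17 windows here, both of Crem and both shown with the element in capitals.
Crem, window 2, chr17:58984547-58984846, plus strand: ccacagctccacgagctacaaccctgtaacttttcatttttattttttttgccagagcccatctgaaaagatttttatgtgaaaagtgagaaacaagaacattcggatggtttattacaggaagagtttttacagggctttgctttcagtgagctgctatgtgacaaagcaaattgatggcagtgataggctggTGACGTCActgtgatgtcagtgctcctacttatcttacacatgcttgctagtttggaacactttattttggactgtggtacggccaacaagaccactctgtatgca
Crem, window 3, chr17:58985240-58985539, plus strand: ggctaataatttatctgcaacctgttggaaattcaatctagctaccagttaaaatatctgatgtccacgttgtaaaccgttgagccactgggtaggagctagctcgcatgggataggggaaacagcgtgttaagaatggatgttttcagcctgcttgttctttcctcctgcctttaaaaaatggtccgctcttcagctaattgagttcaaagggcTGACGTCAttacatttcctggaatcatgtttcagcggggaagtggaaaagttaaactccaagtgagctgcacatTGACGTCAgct
Window 3 of Crem holds the element at 2 places and window 2 at 1. The shorter letters TGACG, also contained in the full element, were found on either strand in 21.2% of all windows. Here they were in 8 of the 17 windows (47.1%), which belong to Gnas, Adcy9, Creb1, Crem and Pde4d. They occur 3 times in window 1 of Creb1, where they are in capitals.
Creb1, window 1, chr9:73397259-73397558, plus strand: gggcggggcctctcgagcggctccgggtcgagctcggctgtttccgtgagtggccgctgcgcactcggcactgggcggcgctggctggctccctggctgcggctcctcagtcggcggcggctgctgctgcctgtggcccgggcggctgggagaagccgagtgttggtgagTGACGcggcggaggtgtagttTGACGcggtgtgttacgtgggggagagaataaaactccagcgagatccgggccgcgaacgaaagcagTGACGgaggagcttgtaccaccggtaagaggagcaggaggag
The window of Akap12 has neither form of the element. It has 1 match to AGGTCA, a core motif of nuclear receptors such as PPARG, here on the opposite strand and so written TGACCT in capitals. That match occurs in 16.2% of all windows and in 2 of the 17 windows here (11.8%), the other being window 2 of Creb1.
Akap12, chr1:43135265-43135564, plus strand: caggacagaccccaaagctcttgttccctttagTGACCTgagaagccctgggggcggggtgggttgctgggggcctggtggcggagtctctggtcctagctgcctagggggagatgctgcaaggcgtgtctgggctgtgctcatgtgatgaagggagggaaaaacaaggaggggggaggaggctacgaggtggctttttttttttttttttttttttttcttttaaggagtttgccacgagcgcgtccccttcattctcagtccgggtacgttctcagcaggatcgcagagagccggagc
These are matches of letters and not measured binding sites.

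Tshr, which encodes the TSH receptor, was higher in PPFP cells. Without pioglitazone it stood at 313, 346 and 296 CPM in EV cells and at 554, 479 and 473 CPM in PPFP cells, so that the lowest PPFP library was above the highest EV library. This was a 1.58-fold difference (log2 fold change 0.66, SE 0.10, n = 3 per group, edgeR quasi-likelihood adjusted p = 0.0014). With pioglitazone the levels were 312, 349 and 289 CPM in EV cells and 515, 428 and 420 CPM in PPFP cells, again without overlap (log2 fold change 0.54, SE 0.11, adjusted p = 0.0045). Pioglitazone itself was followed by a small difference in PPFP cells, where each replicate was lower with the drug than without it (log2 fold change -0.14, SE 0.095, adjusted p = 0.42). The libraries with and without the drug overlapped. With the replicate number used as a block the adjusted p was 0.0013, in a fit where 51.6% of all genes passed. In EV cells the difference was -0.0094 (SE 0.10, adjusted p = 1.00). The 4 group means were 318 ± 25.4, 317 ± 30.5, 502 ± 44.8 and 454 ± 52.4 CPM (SD, n = 3) in EV cells, EV cells with pioglitazone, PPFP cells and PPFP cells with pioglitazone.

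Among 9637 other genes with a mean of at least 1 CPM, those whose pattern over the 12 libraries was most like that of Tshr were Prkci, Spin1 and Puf60. Their centred log2 levels differed from those of Tshr by a root mean square of 0.061, 0.072 and 0.078, against a median of 0.40 over all these genes. Prkci, an atypical protein kinase C, averaged 199 ± 9.43 CPM in the EV libraries without pioglitazone, against 308 ± 19.1 in the PPFP libraries (SD, n = 3). This likeness is a description over libraries that share their batches and groups.

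**Figure D1:**
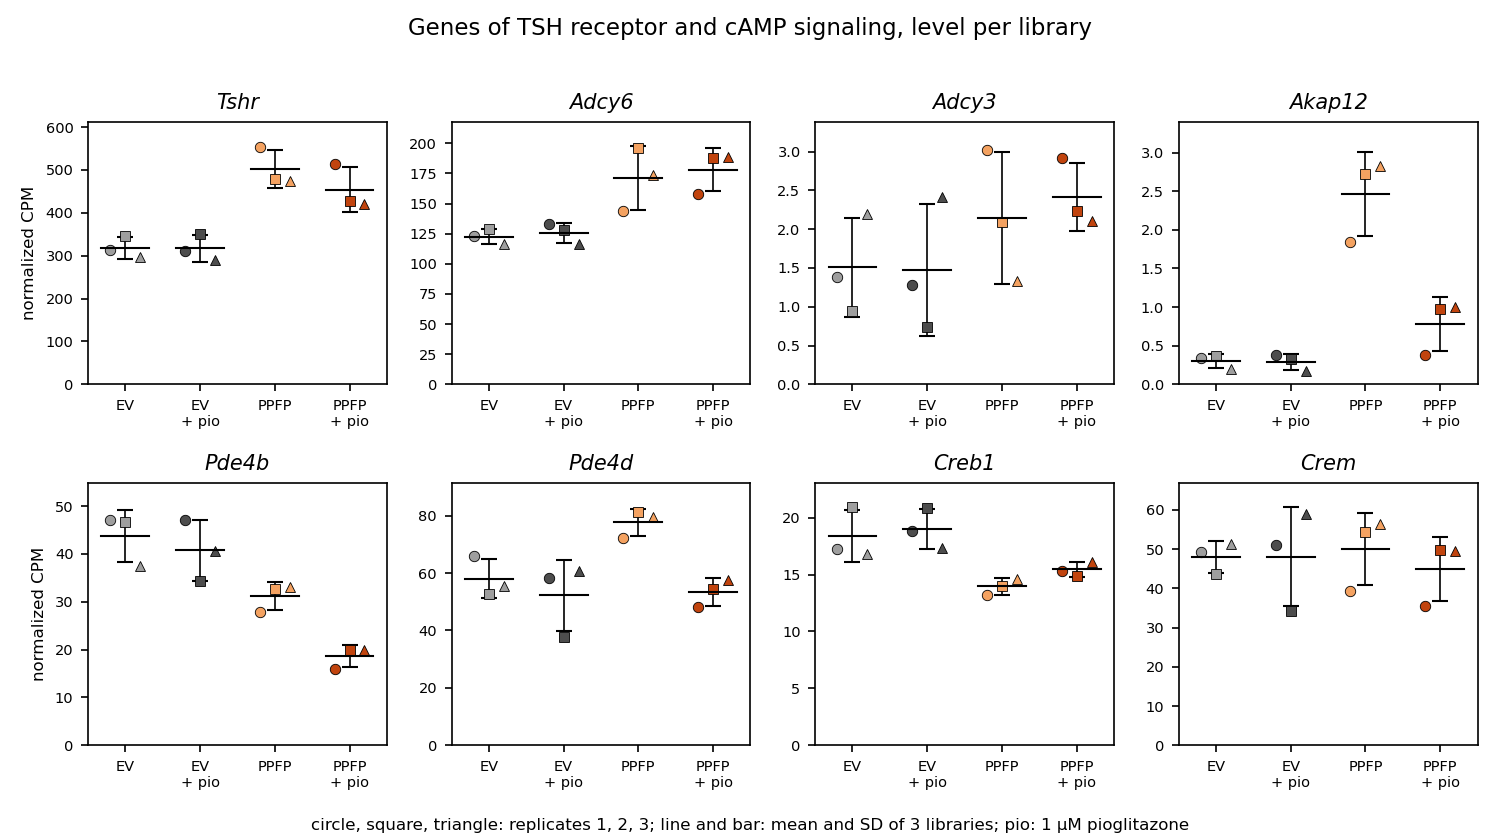
Normalized CPM of 8 genes of TSH receptor and cAMP signaling in each of 12 libraries, on linear axes that start at 0. Points are libraries (circle, square and triangle for replicates 1, 2 and 3), lines are means and bars are SD (n = 3); Tshr and Akap12 without pioglitazone show no overlap between EV and PPFP cells, and Pde4b falls from 31.2 to 18.6 CPM with pioglitazone in PPFP cells.

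Gnas, the next step of the cascade, was listed at 0 counts in all 12 libraries. Its product is used by every thyroid follicular cell, and 3 counts would correspond to 0.081 to 0.13 CPM, so the row gives no level for the gene. Rows without a count in any library numbered 3447 of 16816. The cause of the zeros was not tested.

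Of the adenylyl cyclases, Adcy6 rose and Adcy3 did not pass the test. Adcy6, a cyclase inhibited by calcium, was at 123, 129 and 117 CPM in EV cells and at 144, 196 and 174 CPM in PPFP cells without pioglitazone (log2 fold change 0.48, SE 0.12, adjusted p = 0.014). The call was lost without EV replicate 1 (adjusted p = 0.0505). Every PPFP library was above every EV library, although the lowest PPFP library exceeded the highest EV library by less than the spread among PPFP libraries. With pioglitazone Adcy6 was at 133, 128 and 116 CPM in EV cells and at 158, 188 and 189 CPM in PPFP cells (log2 fold change 0.52, SE 0.10, adjusted p = 0.0040). The drug made a difference of 0.07 in PPFP cells (SE 0.13, adjusted p = 0.79) and of 0.03 in EV cells (SE 0.08, adjusted p = 1.00). Adcy3 rested on 23 to 82 counts per library. It was at 1.38, 0.939 and 2.20 CPM in EV cells and at 3.02, 2.09 and 1.33 CPM in PPFP cells without pioglitazone, and these values overlapped (log2 fold change 0.52, SE 0.39, adjusted p = 0.32). With pioglitazone the groups overlapped as well (log2 fold change 0.73, SE 0.41, adjusted p = 0.17). That value ranged from 0.41 to 1.24 over 6 fits that left out a library and passed in 1 of them (adjusted p = 0.014).

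The 2 cAMP phosphodiesterases differed from each other in direction. Pde4b was lower in PPFP cells: it was at 47.1, 46.6 and 37.6 CPM in EV cells and at 27.8, 32.8 and 33.1 CPM in PPFP cells without pioglitazone (log2 fold change -0.49, SE 0.12, adjusted p = 0.014). Pde4d was higher, at 65.9, 52.8 and 55.5 CPM in EV cells and at 72.1, 81.1 and 79.6 CPM in PPFP cells (log2 fold change 0.42, SE 0.11, adjusted p = 0.015). Neither gene's groups overlapped. The Pde4d call was lost when PPFP replicates 2 and 3 were counted as 1 sample (adjusted p = 0.051) and without PPFP replicate 3 (0.054), and the Pde4b call without EV replicate 1 (0.059). Both enzymes degrade cAMP and belong to the same family, the targets of rolipram.

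With pioglitazone, Pde4b and Pde4d were both lower in PPFP cells than in PPFP cells without it. Pde4b went to 16.0, 20.0 and 19.9 CPM, a 1.66-fold decrease (log2 fold change -0.73, SE 0.12, adjusted p = 0.012). Pde4d went to 48.1, 54.4 and 57.7 CPM, a 1.44-fold decrease (log2 fold change -0.53, SE 0.09, adjusted p = 0.014). Both calls were lost when PPFP replicates 2 and 3 were counted as 1 sample in both groups (adjusted p = 0.17 and 0.19). In EV cells with pioglitazone Pde4b was at 47.2, 34.4 and 40.7 CPM and Pde4d at 58.1, 37.9 and 60.5 CPM, values that overlapped those without the drug (log2 fold changes -0.10, SE 0.14, and -0.15, SE 0.19). Between the cell lines with pioglitazone, levels differed 2.16-fold in Pde4b (log2 fold change -1.11, SE 0.15, adjusted p = 0.00077) and did not differ beyond their spread in Pde4d (0.05, SE 0.19, adjusted p = 0.85).

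Akap12 had few counts in EV cells. This anchoring protein, also called gravin, binds protein kinase A and beta adrenergic receptors. Without pioglitazone it had 10, 11 and 6 counts in EV cells and 50, 73 and 66 counts in PPFP cells, or 0.338, 0.369 and 0.200 against 1.84, 2.72 and 2.83 CPM. The groups did not overlap. Akap12 passed the filter on low counts through the PPFP libraries, and a filter of 10 counts in every compared library left it out, so its fitted values between the cell lines are left out. With pioglitazone the PPFP libraries fell to 10, 26 and 30 counts, or 0.379, 0.970 and 1.00 CPM (log2 fold change -1.62, SE 0.37, adjusted p = 0.032). This call was lost in 4 of the 6 fits that left out a library. It was kept in 8 of 10 other settings, and lost among others with PPFP replicates 2 and 3 as 1 sample in both groups (adjusted p = 0.26). PPFP replicate 1 with the drug then lay within the range of the EV libraries, which had 14, 10 and 5 counts.

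Creb1 and Crem stand at the nuclear end of the pathway. Creb1, the cAMP response element binding protein, was at 17.3, 21.0 and 16.8 CPM in EV cells and at 13.2, 14.0 and 14.6 CPM in PPFP cells without pioglitazone, without overlap (log2 fold change -0.39, SE 0.12, adjusted p = 0.032). This call was lost with PPFP replicates 2 and 3 as 1 sample (adjusted p = 0.079), with the edgeR exact test (adjusted p = 0.052), with the replicate block (adjusted p = 0.072) and in 5 of the 6 fits that left out a library. With pioglitazone Creb1 was at 18.8, 20.9 and 17.3 CPM in EV cells and 15.3, 14.9 and 16.1 CPM in PPFP cells (log2 fold change -0.28, SE 0.10, adjusted p = 0.053). This value passed in 6 of 10 other settings, among them DESeq2 (adjusted p = 0.036), library size alone (0.015) and at least 10 counts in every compared library (0.040), and in 1 of 6 fits that left out a library. Crem, which encodes activator and repressor forms, overlapped between the cell lines, with 49.2, 43.5 and 51.2 CPM in EV cells and 39.4, 54.3 and 56.4 CPM in PPFP cells (log2 fold change 0.06, SE 0.15, adjusted p = 0.76). PPFP replicate 1 was the lowest PPFP library for Crem with the drug as well, at 35.6 CPM against 49.7 and 49.4 CPM.

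**Figure D2:**
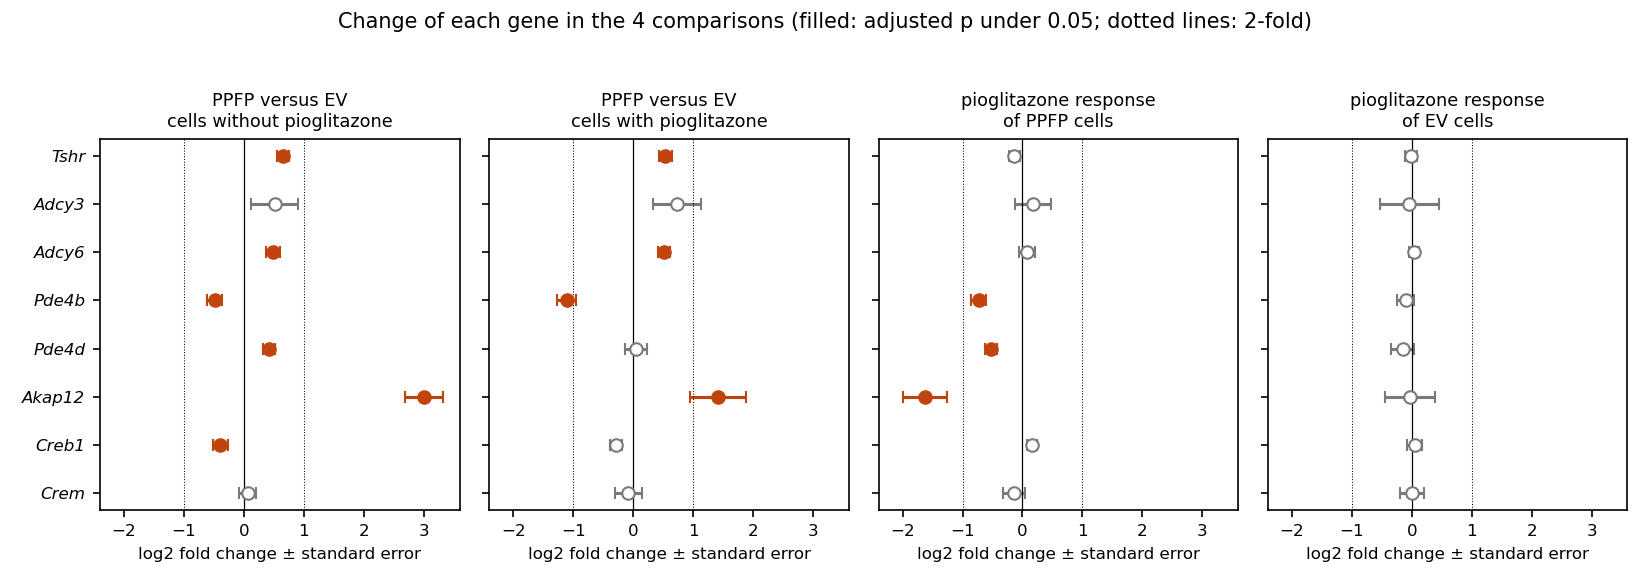
Log2 fold change with its standard error (horizontal axis) of 8 genes (rows) in 4 comparisons of 3 against 3 libraries. Filled points have an adjusted p under 0.05 and dotted lines mark 2-fold. From left to right 6, 4, 3 and 0 genes are filled, where 45.2%, 52.7%, 14.8% and 0% of all genes passed. Akap12 entered the first 2 panels through its PPFP libraries, so its filled points there are drawn but not taken as test results.

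Without pioglitazone 5 of the 7 genes with at least 10 counts in every compared library passed the test between the cell lines, 3 higher and 2 lower, and none was past 2-fold; under that filter 42.8% of 9550 genes passed and 10.3% were past 2-fold. With Akap12 it was 6 of 8, while 45.2% of the 10264 genes tested passed. EV and PPFP libraries did not overlap in 6 of 8, compared with 56.5% over all genes. With PPFP replicates 2 and 3 counted as 1 sample 4 of 8 passed (35.1% of all genes). With pioglitazone 4 of 7 genes with at least 10 counts in every compared library passed, namely Tshr, Adcy6, Creb1 and Pde4b (50.2% of 9498 genes), and Pde4b was past 2-fold (14.8%). Without that filter Creb1 did not pass and Akap12 did, which again made 4, now of 8 (52.7% of 10291 genes), but the Akap12 call was kept in only 1 of 6 fits that left out a library. Groups did not overlap in 4 of 8 (62.9%). Adipocyte marker genes, many of them PPARG targets, moved with the same groups: the 5 genes summed to between 0.629 and 3.14 CPM over all EV libraries, 18.8 to 19.5 in PPFP libraries without the drug and 53.3 to 73.5 with it. Plin1 and Cidec carried this sum, at 6.44 and 8.06 CPM in PPFP libraries without the drug and 40.9 and 22.0 with it; Adipoq went from 4.54 to 2.40, Fabp4 had at most 5 counts and Lep none. Their part in these results was not tested.

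The response to pioglitazone was measured within each line. In PPFP cells 3 of 8 genes passed, all lower, namely Pde4b, Pde4d and Akap12, while 14.8% of 10064 genes passed, 7.13% lower. Akap12 was past 2-fold, as were 2.42% of all genes, and 4 of 8 genes did not overlap, Creb1 being the other (34.4% of all genes). The thyroid follicular marker sum was also lower with the drug, 10207 to 10508 against 13803 to 14442 CPM. Tg made up most of it, with means of 11818 CPM without and 8462 with the drug, while Duox2 went from 88.7 to 179 CPM, and their part in the result was not tested. With the replicate number as a block 5 of 8 passed, Tshr (adjusted p = 0.0013) and Crem (adjusted p = 0.013) in addition, and 51.6% of all genes passed. This block rests on correlations within these same data. In PPFP cells the correlations of equal numbers 2 and 3 (0.40 and 0.36) stood below that of an unlike pair (0.48). With PPFP replicates 2 and 3 counted as 1 sample in both groups, 0 of 8 passed and 5 of 10068 genes passed in all, and the values themselves were close (Pde4b -0.75, Pde4d -0.54, Akap12 -1.73). The 3 calls also fell to 0 without PPFP replicate 3 without pioglitazone and to 1 without PPFP replicate 2 with pioglitazone.

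In EV cells 0 of 8 genes passed in the edgeR quasi-likelihood test, as did 0 of 10146 genes, of which 16 had an unadjusted p under 0.05; none of the 8 passed with DESeq2 or with the block either. The difference between the responses of PPFP and EV cells was tested directly. It was -0.64 for Pde4b (SE 0.20, adjusted p = 0.13), -0.38 for Pde4d (SE 0.22, adjusted p = 0.55) and -0.14 for Tshr (SE 0.15, adjusted p = 0.84). None of the 8 genes passed, while 2.64% of 10482 genes did. With a replicate block within each cell line Pde4b (adjusted p = 0.00091), Pde4d (0.018) and Tshr (0.025) passed, and 34.3% of all genes passed. Akap12, which has few counts in EV cells, also passed with that block, making 4 of 8. Its difference without the block was -1.61 (SE 0.59, adjusted p = 0.23). With PPFP replicates 2 and 3 counted as 1 sample in both groups 0 of 8 and 0.627% of all genes passed.

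The rest of the pathway was read from 11 lists of 132 genes, of which 123 had a row. Without pioglitazone 46 of 89 tested genes passed between the cell lines, 27 higher and 19 lower, or 51.7% against 45.2% of all genes; with PPFP replicates 2 and 3 counted as 1 sample it was 38 of 89, or 42.7% against 35.1%. With at least 10 counts in every compared library it was 40 of 83, or 48.2% against 42.8%. In PPFP cells 12 of 86 passed with pioglitazone (14.0% against 14.8% of all genes), 53 of 86 with the replicate block (61.6% against 51.6%), and 0 of 86 with PPFP replicates 2 and 3 counted as 1 sample in both groups; in EV cells it was 0 of 84.

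Upstream of the cyclases, Gphb5, the beta subunit of the TSH receptor ligand thyrostimulin, was at 3.78, 1.95 and 2.43 CPM in EV cells and 14.1, 13.5 and 14.0 CPM in PPFP cells without pioglitazone (log2 fold change 2.35, SE 0.23, adjusted p = 0.00020). It was the only 1 of the 4 hormone subunits with enough counts to be tested. Gpha2, the alpha subunit of thyrostimulin, had at most 1 count in any library, and Tshb and Cga had none. Of 16 other G protein subunits and regulators with at least 10 counts in every compared library 7 passed, 6 higher and 1 lower (42.8% of all genes). Gng12, a gamma subunit, rose from 32.7, 40.1 and 32.8 to 76.5, 80.5 and 79.3 CPM (log2 fold change 1.16, SE 0.10, adjusted p = 0.00012). Of 7 genes of receptor desensitization 1 was higher and 2 were lower (45.2% of all genes passed).

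Among the other cyclases Adcy1, a calcium stimulated enzyme best known from neurons, had 7, 5 and 3 counts in EV cells and 380, 447 and 416 counts in PPFP cells without pioglitazone. That is 0.236, 0.168 and 0.100 against 14.0, 16.7 and 17.8 CPM. Adcy1 entered the test through the PPFP libraries alone, so its fitted values are left out. With pioglitazone it had 6, 2 and 3 counts in EV cells and 431, 547 and 584 in PPFP cells. The 3 libraries of each line lay far apart from those of the other in both conditions. Of the 3 cyclase list genes with at least 10 counts in every compared library 1 was higher and 1 lower, where 42.8% of all genes passed.

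Of 8 other cAMP phosphodiesterases with at least 10 counts in every compared library 2 were higher and 2 lower (42.8% of all genes passed). Pde2a, which is stimulated by cGMP, rose from 42.4, 33.2 and 47.4 to 194, 203 and 194 CPM (log2 fold change 2.27, SE 0.13, adjusted p = 1.8e-05). Pde1b, which is activated by calcium and calmodulin, had 4, 3 and 6 counts in EV cells and 44, 65 and 45 in PPFP cells, and it likewise entered the test only through the PPFP libraries. Pde7b and Pde1a, named after their values were seen, fell by 1.26 and 1.19 on the log2 scale (adjusted p = 0.00031 and 0.0010).

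**Figure D3:**
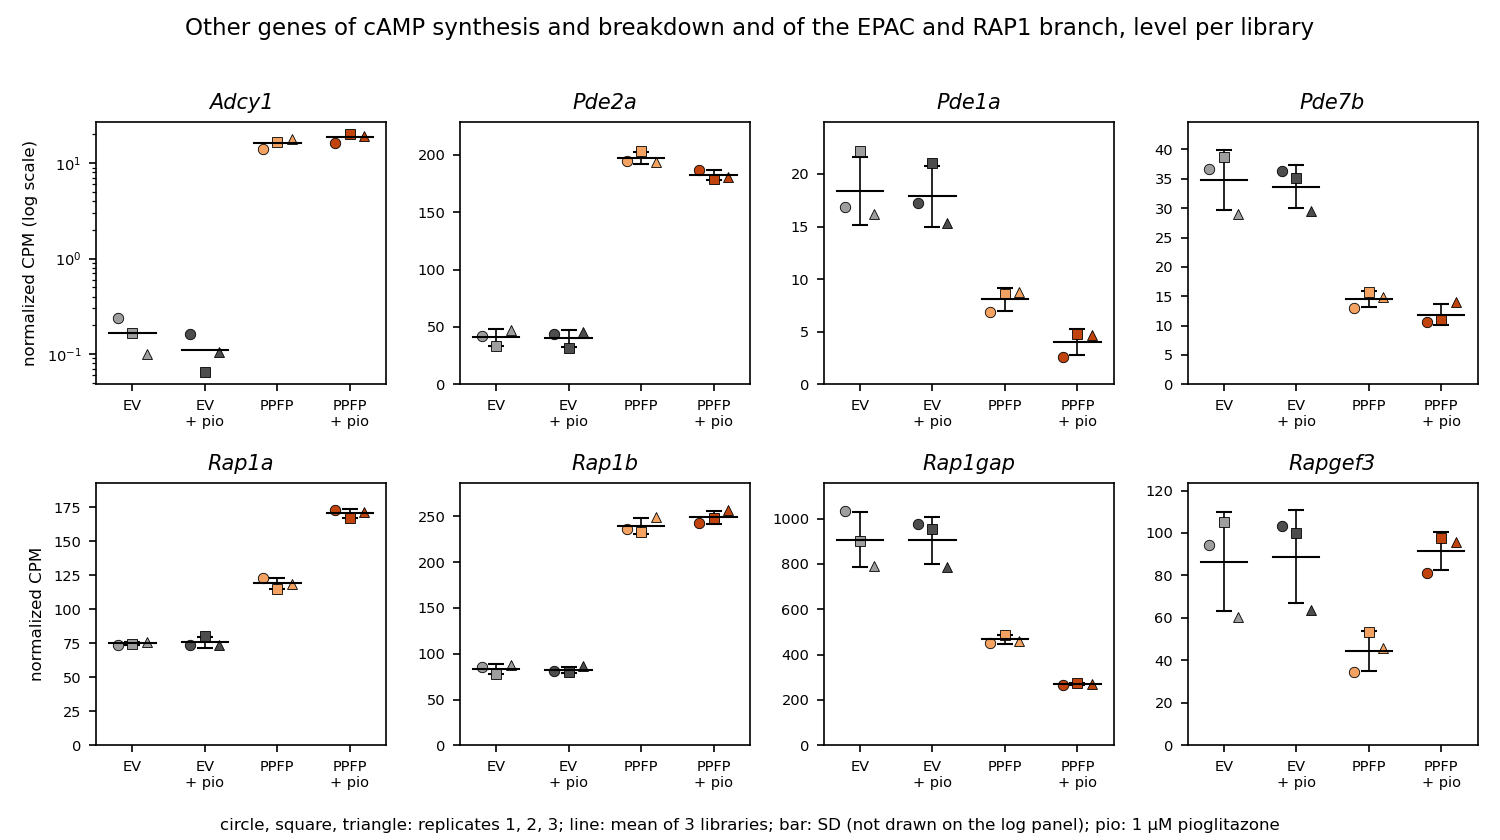
Normalized CPM of 8 further genes of cAMP synthesis, breakdown and the RAP1 branch in each of 12 libraries; the Adcy1 panel has a log axis and the others start at 0. Points are libraries, lines are means and bars are SD (n = 3, not drawn on the log panel); Adcy1, Pde2a, Rap1a and Rap1b are higher and Pde1a, Pde7b and Rap1gap lower in all PPFP libraries than in all EV libraries.

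For protein kinase A, 2 of 7 tested subunits and inhibitors were higher and 1 was lower, or 3 of 7 beside 45.2% of all genes. Of 13 other anchoring proteins 2 were higher and 2 lower, or 4 of 13 beside the same 45.2%. Akap6 rose from 2.20, 2.42 and 1.53 to 3.16, 5.71 and 5.22 CPM (log2 fold change 1.20, SE 0.28, adjusted p = 0.011).

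The EPAC and RAP1 branch, which carries cAMP signals past protein kinase A, had 4 of 5 tested genes past the test without pioglitazone, 2 higher and 2 lower, where 45.2% of all genes passed. Rapgef3, which encodes EPAC1 and is named after its values were seen, was at 94.3, 105 and 60.3 CPM in EV cells and 34.6, 53.2 and 45.7 CPM in PPFP cells (log2 fold change -0.96, SE 0.23, adjusted p = 0.012). With pioglitazone it rose to 81.1, 97.6 and 95.9 CPM in PPFP cells (1.05, SE 0.17, adjusted p = 0.0095), a call lost with PPFP replicates 2 and 3 as 1 sample in both groups (adjusted p = 0.15) and without PPFP replicate 3 without pioglitazone (0.051). The difference from the response of EV cells was 1.00 (SE 0.33, adjusted p = 0.17), and it passed with the replicate block within each cell line (adjusted p = 7.0e-07). Rap1b, a small GTPase, rose from 85.0, 77.3 and 87.9 to 236, 233 and 250 CPM without pioglitazone (log2 fold change 1.52, SE 0.08, adjusted p = 1.3e-05). Rap1gap, which switches RAP1 off, was at 1034, 899 and 790 CPM in EV cells and 450, 488 and 462 CPM in PPFP cells, and with pioglitazone the PPFP libraries stood at 266, 276 and 269 CPM. The drug response was -0.78 (SE 0.05, adjusted p = 0.00051). Rap1a went the other way, at 123, 115 and 119 CPM in PPFP cells and 173, 167 and 172 CPM with pioglitazone (log2 fold change 0.53, SE 0.05, adjusted p = 0.0014). Gnb1, a G protein beta subunit, rose from 504, 500 and 493 to 666, 688 and 682 CPM (log2 fold change 0.45, SE 0.04, adjusted p = 0.0015). With PPFP replicates 2 and 3 counted as 1 sample the responses of Rap1gap, Rap1a and Gnb1 had adjusted p of 0.068, 0.10 and 0.11.

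Among 9 tested CREB family factors and coactivators 3 were higher and 3 lower, while 45.2% of all genes passed. Creb5 fell from 1.92, 2.55 and 1.30 to 0.368, 0.522 and 0.728 CPM without pioglitazone (log2 fold change -1.84, SE 0.36, adjusted p = 0.0047). Creb3l1, a membrane bound factor, rose from 1.72, 1.44 and 0.566 to 2.54, 4.93 and 4.28 CPM (log2 fold change 1.65, SE 0.41, adjusted p = 0.014) and was at 10.0, 13.4 and 13.2 CPM in PPFP cells with pioglitazone. Of 15 CREB target genes 3 were higher and 3 lower, or 6 of 15 beside 45.2%. Sik1, a kinase induced by cAMP, rose from 133, 132 and 122 to 229, 437 and 376 CPM (log2 fold change 1.43, SE 0.22, adjusted p = 0.0014). Ppargc1a, a coactivator also induced by cAMP, fell from 31.6, 48.5 and 23.5 to 13.0, 15.8 and 17.4 CPM (log2 fold change -1.17, SE 0.26, adjusted p = 0.0082). For pioglitazone in PPFP cells 10 of the 15 targets passed with the replicate block (51.6% of all genes), Ppargc1a (0.40, adjusted p = 2.3e-05) and Sik1 (-0.18, adjusted p = 0.0015) among them, and 0 of 15 without it in edgeR (14.8%).

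**Figure D4:**
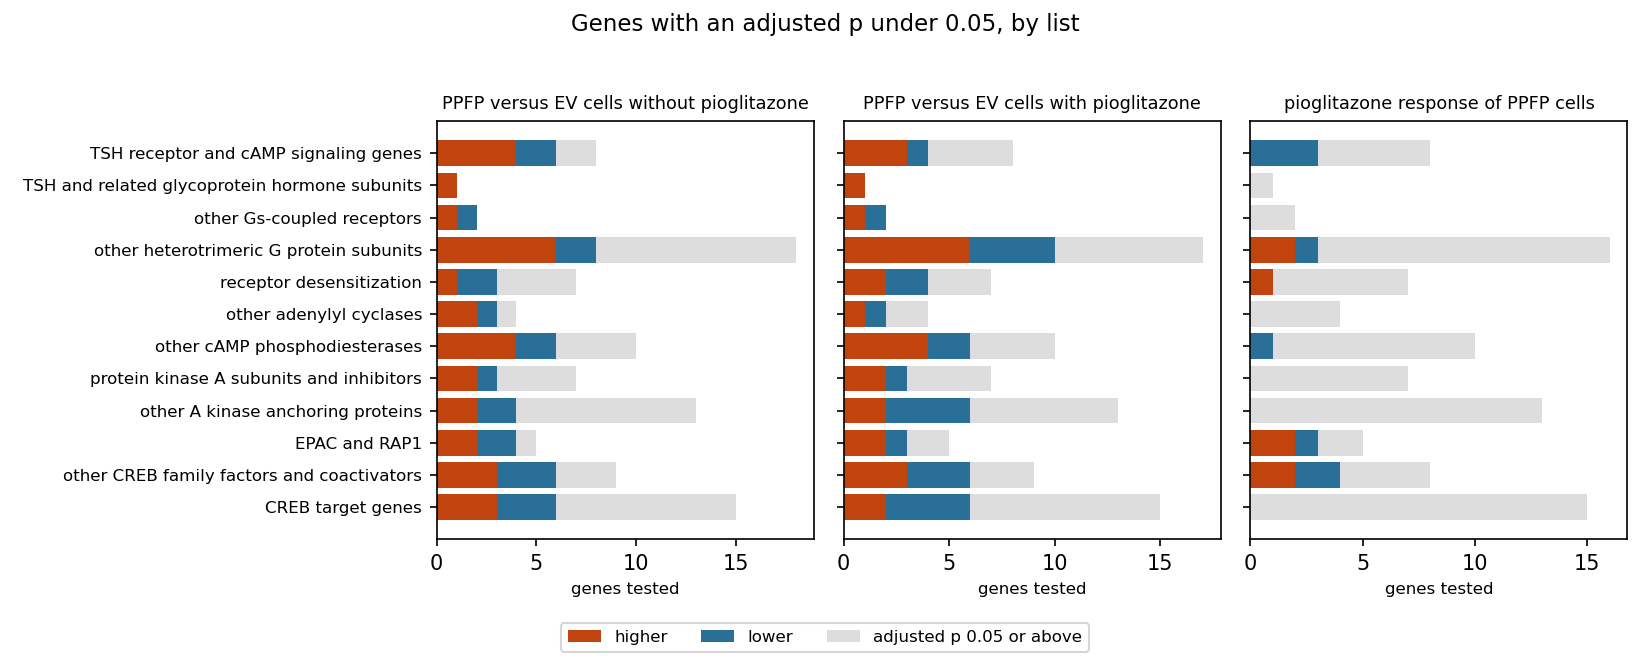
Number of tested genes (horizontal axis) in each list (rows) that were higher, lower or did not pass at an adjusted p of 0.05, in 3 comparisons. Higher and lower genes stand side by side in most lists between the cell lines. In the drug response of PPFP cells 3 of 8 TSH receptor and cAMP signaling genes passed, all lower, while 14.8% of all genes passed and 7.13% passed lower. With PPFP replicates 2 and 3 counted as 1 sample in both groups, 0 of 8 passed and 5 of 10068 genes passed in all.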

How the data were processed

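RNA libraries numbered 12, from 3 experiments. The authors aligned reads with TopHat2 2.0.11 to rn4, counted them per gene with HTSeq 0.6.1p1 and deposited raw counts; the annotation and the strand setting are not given in the sources used here. The 12 count columns matched the labels and 0 columns were left unmapped. Peak lists of PPFP binding were not used here, since no rn4 gene positions were at hand to tie them to genes, as the paper did.

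After filterByExpr and TMM scaling, genes entered the quasi-likelihood test of edgeR 4.0.16 in R 4.3.3, 3 against 3 libraries, and over 12 libraries for the difference in response. Benjamini-Hochberg adjustment ran over all genes, and a gene passed at an adjusted p under 0.05; a 2-fold change was noted beside it. SE is the standard error of log2 fold change, and CPM carried TMM factors.

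The members and lists were chosen with earlier results of these data known. List genes named are, per list, the 2 with the largest change past 2-fold without overlap at 1 CPM or more, and the 3 with the smallest adjusted p for pioglitazone in PPFP cells; others are marked. Replicate pairs were compared by chi-square over genes with at least 20 counts. Same-numbered libraries deviated together within each cell line (correlations 0.69, 0.40 and 0.36 in PPFP cells, 0.48, 0.68 and 0.73 in EV cells), so the number was taken to pair samples there. The pairing comes from these correlations, and in PPFP cells an unlike pair reached 0.48, against at most -0.034 in EV cells. The paper states that samples of an experiment shared sequencing lanes, but the labels give only replicate numbers and do not name the experiment. The script was tested on simulated data. DESeq2 1.42.0, other scalings, filters and designs served as alternatives.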

Additional observations from a re-analysis of the deposited data

Results flagged for a closer look

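Of the genes of TSH receptor and cAMP signaling and the listed pathway genes, 4 of the 89 listed genes tested (4.49%, against 2.64% of all genes) differed between PPFP and EV cells in their response to pioglitazone, and the difference itself was tested as an interaction over 12 libraries with edgeR. With the replicate block within each cell line 33 of 89 did (37.1%, against 34.3% of all genes). None of the 4 was among the 8 genes described first. Rap1a rose more in PPFP cells (difference 0.50, SE 0.08, adjusted p = 0.0091). Gnb1 also rose more (0.44, SE 0.09, adjusted p = 0.023). Rap1gap fell more (-0.78, SE 0.15, adjusted p = 0.019). Gng7, a G protein gamma subunit named after its values were seen, fell more as well (-0.79, SE 0.17, adjusted p = 0.033); it was at 18.0, 20.1 and 20.7 CPM in PPFP cells and at 9.77, 12.3 and 11.3 CPM in PPFP cells with the drug. With PPFP replicates 2 and 3 counted as 1 sample in both PPFP groups, a setting chosen after seeing the data, the adjusted p became 0.11 for Rap1a, 0.24 for Gnb1, 0.11 for Rap1gap and 0.17 for Gng7. Of 12 fits that left out a library, the call was lost in 0 for Rap1a, 6 for Gnb1, 4 for Rap1gap and 9 for Gng7.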

How the results depend on the processing

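Counts are of the 8 tested genes, Akap12 included. The share over all genes tested stands in brackets. Between the cell lines without pioglitazone 6 passed (45.2%), and 3 to 6 when a library was left out (33.2% to 46.8%). The 3 came without EV replicate 1 without pioglitazone (34.1%). With pioglitazone 4 passed (52.7%), and 3 to 5 with a library left out (41.3% to 55.3%). For the drug in PPFP cells 3 passed (14.8%), 5 with the replicate block (51.6%) and 0 to 3 with a library left out (6.24% to 17.0%). The closeness of PPFP replicates 2 and 3 was noticed in the data. Counting them as 1 sample in both groups, a setting chosen after seeing the data, left 0 (5 of 10068 genes in all). Pde4d alone lost its call with all 12 libraries in one fit (adjusted p = 0.052). Whether replicates 2 and 3 share a culture or RNA was not tested. For the difference in response 0 passed (2.64%), and 4 with the replicate block within each cell line (34.3%). Between the cell lines the numbers did not pair the samples, and the block left 5 and 3 genes (39.5% and 44.2%).

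Reversed values were all of genes that did not pass. With library size alone Crem without pioglitazone was -0.017, Pde4d with pioglitazone -0.086 and the Adcy6 difference in response -0.020. With replicates 2 and 3 as 1 sample these were -0.0070, -0.014 and -0.020, the last with only the libraries with pioglitazone joined. Crem in EV cells with the drug was -0.00071 with DESeq2, -0.00084 with RLE factors and -0.021 with the block. With a library left out, Crem between the lines ranged from -0.021 to 0.23 without and -0.28 to 0.071 with pioglitazone, and Pde4d with pioglitazone from -0.14 to 0.15. In PPFP cells the drug response ranged from -0.070 to 0.48 for Adcy3 and -0.061 to 0.16 for Adcy6. In EV cells it ranged from -0.081 to 0.047 for Tshr, -0.59 to 0.35 for Adcy3, -0.0048 to 0.076 for Adcy6, -0.020 to 0.15 for Creb1, -0.18 to 0.20 for Crem, -0.22 to 0.0071 for Pde4b, -0.29 to 0.034 for Pde4d and -0.27 to 0.21 for Akap12. The difference in response ranged from -0.17 to 0.73 for Adcy3, -0.090 to 0.14 for Adcy6, -0.011 to 0.17 for Creb1 and -0.35 to 0.015 for Crem. The peak alternatives were not run. Low counts limit Akap12, Adcy3 and, in EV cells, Adcy1 and Pde1b.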
